A study of Homo sapiens with 6 samples.

Results

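The genes described here encode the iron-dependent 2-oxoglutarate oxygenases that act on histones, DNA, collagen and a range of other proteins, tRNA or lipids, outside the AlkB and EGLN families. A list of 43 genes was read by gene name from a table of 45019 rows per library. It holds 20 chromatin proteins (16 histone demethylases of the Jumonji C type, the 3 TET enzymes and JARID2), 10 collagen proteins (3 prolyl 4-hydroxylase subunits, 3 lysyl hydroxylases, 3 prolyl 3-hydroxylases and P3H4) and 13 other oxygenases. JARID2 and P3H4 are non-catalytic and are counted below among the oxygenase genes. The RNA was that of MDA-MB-468, a triple-negative breast cancer cell line of the basal type. Cells were either untreated or given 100 µM DETA/NO, a donor that releases nitric oxide slowly, for 10 days. Per the labels, dishes were pooled within each replicate and replated every 48 h, and the donor was added 4 h after plating. How the untreated cells were handled over the 10 days is not given in the sources used here, and the only control group was untreated cells. Each group had 3 labelled samples, but the files of DETA/NO samples 1 and 2 held identical values and the same library name inside, and were counted as 1 library. All comparisons therefore rest on n = 3 untreated and n = 2 DETA/NO libraries of 1 cell line, and p-values measure the spread between these libraries, which may be technical.

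Enzymes of this superfamily hold an iron atom in the active site and use molecular oxygen and 2-oxoglutarate, an intermediate of the citric acid cycle, to oxidize their substrate, releasing succinate and carbon dioxide. Jumonji C demethylases remove methyl groups from histone lysines in this way, TET enzymes oxidize methylated cytosine in DNA, and the collagen hydroxylases modify prolines and lysines of new collagen chains in the endoplasmic reticulum. Nitric oxide can bind the iron of such active sites, and the series was designed around a member of the superfamily, the RNA demethylase FTO. The values below are transcript levels, and enzyme activity was not measured.

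Libraries held 28897422 to 34637343 recovered reads, and 22374 to 22614 genes had a value above 0. All 7 epithelial markers examined were present. Their summed values were 363000 to 368300 normalized reads in untreated and 392000 to 397900 in DETA/NO libraries. EGFR made up most of these sums, with a mean of 222200 in untreated and 246900 in DETA/NO libraries. KRT5 rose by 0.24 and EGFR by 0.15 on the log2 scale, and KRT19 had a log2 fold change of -0.18. EGFR had no change under quantile normalization, and KRT5 lost its call when DETA/NO library 3 was left out (adjusted p = 0.0564). Of markers of other cell types, the leukocyte gene CD68 was listed at 0 in every library (another gene overlaps 100% of its span), and CD3E and LYZ had at most 3.92 normalized reads. PTPRC rose by 1.33 from 13.3 ± 4.01 (SD, n = 3) and CD14 had a log2 fold change of -1.15. Of the 5 endothelial markers, 3 rose: CDH5 by 1.20, KDR by 0.55 and TEK by 1.75. TEK had 5.69 ± 1.54 (SD, n = 3) normalized reads in untreated libraries, under the mean of 10 required for testing. It was tested only because its DETA/NO values, 23.3 and 19.0, raised its mean over all libraries. PECAM1 and VWF did not pass (log2 fold changes -0.16 and 0.40). The summed list went from 332 to 368 in untreated libraries to 522 to 577 in DETA/NO libraries. In such bulk samples a change in the share of a kind of cell and a change in RNA per cell cannot be told apart.

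Of the 43 genes, 39 had a mean of at least 10 normalized reads and were tested (limma on log2(value + 1), Benjamini-Hochberg adjusted p under 0.05 over all 16409 tested genes). DETA/NO went with higher transcript levels of 12 of them and lower levels of 8. In the same test 43.4% of all tested genes passed, 21.7% upward and 21.7% downward, so that the share of oxygenase genes past the test, 51.3%, was near that of the transcriptome. The largest rise was that of the prolyl 3-hydroxylase P3H2, close to a doubling, and the largest fall was that of TET1. The median log2 fold change of the 39 genes was 0.054, against -0.00016 for all tested genes, and their median absolute log2 fold change was 0.128, against 0.18. In 27 of the 39 genes the groups did not overlap, against 61.2% of all tested genes: both DETA/NO values were above every untreated value in 17 (30.4% of all tested genes) and below in 10 (30.8%). Without DETA/NO library 3 the number that fell was 5 in place of 8.

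The counts were also taken by class. Of 20 chromatin genes, 4 rose, 4 fell and 12 did not pass the test, with a median log2 fold change of 0.024 and a median absolute log2 fold change of 0.069. The share called, 40.0%, and the 13 of 20 genes without overlap between the groups are near the 43.4% and 61.2% of all tested genes. Of 9 tested collagen genes, 5 rose, 2 fell and 2 did not pass, with a median log2 fold change of 0.311 and a median absolute log2 fold change of 0.327; the share called was 77.8%. Of 10 tested other oxygenases, 3 rose, 2 fell and 5 did not pass, with a median of -0.009. Without DETA/NO library 3, 0 collagen genes fell, and 1 fell without untreated library 3 or the shared DETA/NO library 1 and 2. Without untreated library 2 or DETA/NO library 3, 1 of the other oxygenases fell. The difference between the classes is given as counts and medians, with no test.

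**Figure D1:**
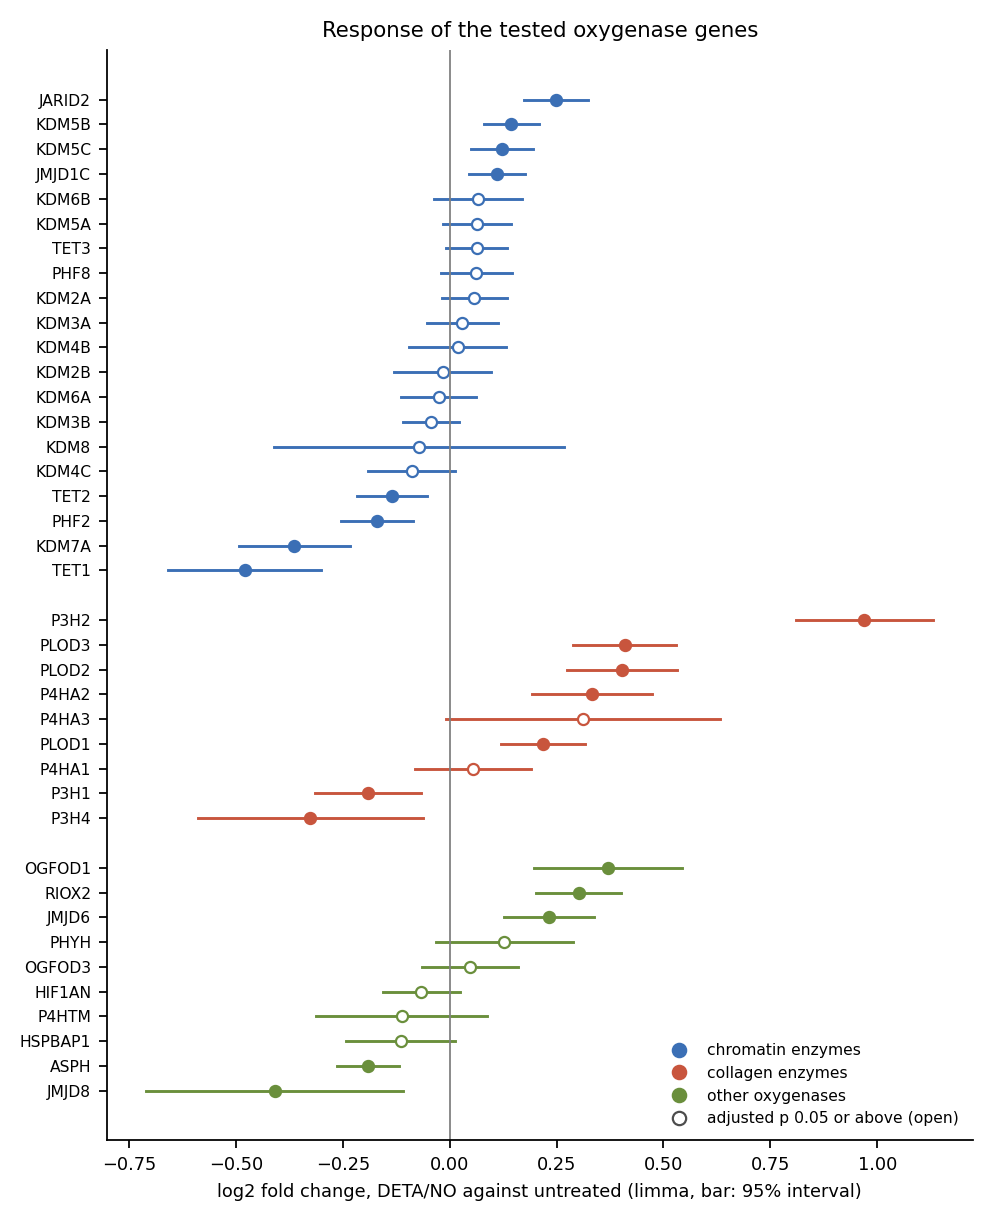
Log2 fold change of each tested oxygenase gene, DETA/NO (n = 2 libraries) against untreated (n = 3), on the horizontal axis, with its 95% interval from limma; filled points had an adjusted p under 0.05. Most chromatin genes sit within 0.15 of no change, whereas P3H2 stands at 0.97 and 5 of the 9 collagen genes lie to the right with an interval that leaves out 0.

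Sequence upstream of 4 of these genes is printed to show the 5-letter cores of the hypoxia response element, ACGTG and GCGTG, searched on both strands, since several collagen hydroxylases and the demethylases KDM3A, KDM4B and KDM4C are textbook targets of hypoxia-inducible factors. P3H2 and TET1 are shown as the genes with the largest rise and fall, and PLOD2 and KDM4B as hypoxia targets of which the first rose and the second did not pass the test. Capitals mark the matches, the strand is that of the gene, and only bases outside the exons annotated in GENCODE are printed, from the 250 bases before a RefSeq start of each gene (GRCh38.p14). The PLOD2 window lies between exons inside the annotated span of the gene, downstream of the 5′ end that GENCODE gives. The regions are chr3:190122438-190122528 (minus strand) for P3H2, chr3:146161185-146161434 (minus strand) for PLOD2, chr19:4968863-4969112 (plus strand) for KDM4B and chr10:68560087-68560336 (plus strand) for TET1.
P3H2: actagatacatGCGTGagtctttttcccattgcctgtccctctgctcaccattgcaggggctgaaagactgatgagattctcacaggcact
PLOD2: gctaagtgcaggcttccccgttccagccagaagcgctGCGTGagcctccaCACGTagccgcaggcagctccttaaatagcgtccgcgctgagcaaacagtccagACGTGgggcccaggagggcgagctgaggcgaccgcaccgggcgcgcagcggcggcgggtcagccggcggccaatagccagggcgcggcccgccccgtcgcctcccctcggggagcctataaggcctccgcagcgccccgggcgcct
KDM4B: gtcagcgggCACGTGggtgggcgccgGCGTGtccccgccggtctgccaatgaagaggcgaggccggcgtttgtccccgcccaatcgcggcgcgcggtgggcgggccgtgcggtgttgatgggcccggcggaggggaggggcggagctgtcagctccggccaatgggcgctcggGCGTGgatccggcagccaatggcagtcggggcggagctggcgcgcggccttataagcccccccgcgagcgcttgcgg
TET1: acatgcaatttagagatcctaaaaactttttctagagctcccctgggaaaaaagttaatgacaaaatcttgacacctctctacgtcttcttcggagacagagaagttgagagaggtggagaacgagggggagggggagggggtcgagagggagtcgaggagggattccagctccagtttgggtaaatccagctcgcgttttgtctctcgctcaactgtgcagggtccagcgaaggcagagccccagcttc
The PLOD2 window held 3 matches, at 146, 200 and 213 bases before the start, and the KDM4B window held 4, of which 2 are the same 6 letters read on both strands. The TET1 window printed here held 0. RefSeq lists other starts for P3H2 and TET1: the second P3H2 window held 3 matches, the second TET1 window 1 and the third TET1 window 0. Windows were found for 38 of the 43 genes, 57 windows in all, of which 61.4% held at least 1 match. Among all 35116 RefSeq windows the share was 43.2% (18.5% for ACGTG and 32.2% for GCGTG). These shares were not matched for GC content, though both cores hold a CG. The median GC content of all windows was 58.0%, and windows of the 43 genes had 43.2% to 84.8%. Some windows of the same gene overlap, as for KDM3A and OGFOD1, and can count a match again. The difference was not tested. PLOD3 and P4HA2, which also rose, had 0 matches in their windows.

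Lysyl hydroxylases form the hydroxylysines that carry collagen's sugars and its crosslinks, and all 3 rose. PLOD3, which also transfers glucose to hydroxylysine, had 827, 924 and 951 normalized reads in untreated libraries 1, 2 and 3, and 1212 and 1176 in DETA/NO libraries 1 and 2 (shared) and 3. PLOD2, the enzyme of the collagen telopeptides, had 619, 598 and 582 against 796 and 791. In both genes the DETA/NO libraries were higher than every untreated library, by more than the whole range of the untreated values. Their log2 fold changes were 0.41 ± 0.059 (SE; adjusted p = 9.66e-07) for PLOD3 and 0.40 ± 0.063 (adjusted p = 4.12e-06) for PLOD2. PLOD1 went from 1361 ± 31.1 (SD, n = 3) to 1585 ± 83.7 (SD, n = 2), a log2 fold change of 0.22. Summed per kb of annotated exon, the 3 lysyl hydroxylases went from 493 ± 12.9 to 612 ± 20.7 normalized reads, while the share of each changed little: PLOD1 held 51.9% ± 0.896 of the sum in untreated and 48.7% ± 0.923 in DETA/NO libraries. PLOD3 lies on chromosome 7 at 101205977 to 101218420 and PLOD2 on chromosome 3 at 146069440 to 146163653 (GRCh38). Another gene overlaps 38% of the PLOD2 span and 0.0% of its exons, and whether this lowers the PLOD2 values was not tested.

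Prolyl 4-hydroxylases form the hydroxyproline that keeps the collagen triple helix stable at body temperature. Of their 3 catalytic subunits only P4HA2 passed the test. P4HA2 stood at 549.5, 506 and 558 normalized reads without the donor and at 689 and 666 with it, where both values were higher than all 3 untreated ones (log2 fold change 0.33 ± 0.069, adjusted p = 0.000179). P4HA1, the subunit with the highest level per length, had 723 ± 48.0 and 751 ± 54.2, and the groups overlapped (log2 fold change 0.05, 95% interval -0.08 to 0.19, adjusted p = 0.547). P4HA3 had 79.3, 71.6 and 92.4 against 101.9 and 98.8; its log2 fold change of 0.31 had a wide interval, -0.01 to 0.63 (adjusted p = 0.111). Per kb of exon, P4HA1 held 73.7% ± 1.44 of the family's reads in untreated and 69.8% ± 2.03 in DETA/NO libraries. P4HA2 held 19.95% ± 0.708 and 23.0% ± 1.56. The annotated exon lengths were 3.093 kb for P4HA1 and 8.502 kb for P4HA2, and the size of these shares depends on them.

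Among the prolyl 3-hydroxylases the genes moved in opposite directions. P3H2, which acts on basement membrane collagen, was measured at 347, 360 and 326 normalized reads in untreated cells and at 632 and 722 with DETA/NO. The lower DETA/NO library was well above the highest untreated library, and the log2 fold change was 0.97 ± 0.079 (adjusted p = 9.01e-12), a 1.96-fold rise. P3H2 lies on chromosome 3 at 189956728 to 190122437. P3H1, the prolyl 3-hydroxylase of fibrillar collagens that is mutated in a recessive form of brittle bone disease, went from 788 ± 28.6 to 689.5 ± 13.6 , and its log2 fold change of -0.19 ± 0.061 passed the test (adjusted p = 0.0115) but not when DETA/NO library 3 was left out (0.0792). P3H4, a non-catalytic relative that binds PLOD1 and P3H3, had 150.0, 147.1 and 189.5 against 127.4 and 129.1, with the highest value in untreated library 3. Its log2 fold change was -0.33 ± 0.129 (adjusted p = 0.0403). That call was lost on leaving out untreated library 3 (adjusted p = 0.240), DETA/NO library 1 and 2 (0.123) or DETA/NO library 3 (0.0960). P3H3 had at most 2.22 normalized reads in any library and was under the filter. Per kb of exon, P3H2 held 27.8% ± 2.22 of this family's reads in the untreated libraries and 46.9% ± 2.72 in the DETA/NO libraries. P3H1 held 52.6% ± 0.784 and 39.7% ± 2.22. By this measure P3H2 had the higher level of the pair with DETA/NO and P3H1 without it. Before division by length the DETA/NO means were 676.6 for P3H2 and 689.5 for P3H1, so their order with DETA/NO depends on the annotated exon lengths.

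**Figure D2:**
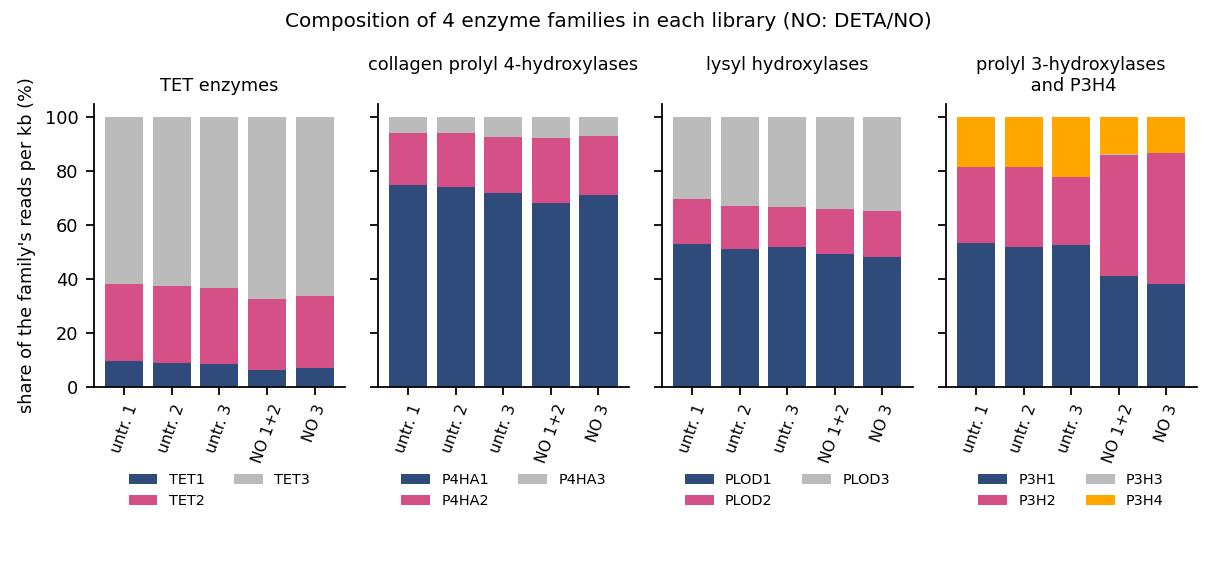
Share of each gene, in percent of the family's normalized reads per kb of annotated exon (vertical axis), in each of the 5 libraries, for 4 families. The P3H2 share is 25.4% to 29.8% in untreated and 45.0% and 48.8% in DETA/NO libraries, whereas the lysyl and prolyl 4-hydroxylase families keep their order.

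Other genes of collagen maturation were read from a list of 13, of which 11 were tested, 4 rose and 2 fell (median log2 fold change 0.045). The share called was 54.5%, against 43.4% of all tested genes (21.7% upward and 21.7% downward). SERPINH1, the collagen chaperone of the endoplasmic reticulum, rose by 0.48 and LOXL2, a copper-dependent lysyl oxidase with 54.2% of its span overlapped by other genes, by 0.98. P4HB, the subunit that partners every P4HA chain, had a log2 fold change of -0.16, and PPIB, a prolyl isomerase that forms a complex with P3H1, of -0.17. CRTAP, the third protein of that complex, had 0.04 (adjusted p = 0.495). On leaving out DETA/NO library 1 and 2, PPIB no longer passed (adjusted p = 0.0619) and 1 gene of the list fell, and 2 rose without untreated library 1 or DETA/NO library 3. Of 16 tested collagen chains, the substrates of these enzymes, 9 rose and 1 fell, a share called of 62.5%. The difference from all tested genes was not tested. COL5A2 rose by 1.06 and COL17A1 by 2.59, and COL18A1 had a log2 fold change of -0.54. Of the 8 fibroblast markers examined, 6 lay under the filter, among them COL1A2, COL3A1, DCN and LUM with at most 3.32 normalized reads, and COL1A1 and FAP rose by 0.49 and 0.55. The summed fibroblast markers ranged from 770 to 820 normalized reads in untreated and from 1085 to 1121 in DETA/NO libraries, and their part in the collagen enzyme result was not tested.

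Of 16 histone demethylase genes 3 rose, 2 fell and 11 did not pass the test, a share called of 31.2% against 43.4% of all tested genes. KDM5B and KDM5C, which remove the promoter mark on lysine 4 of histone H3, rose by 0.14 ± 0.031 (adjusted p = 0.000367) and 0.12 ± 0.035 (adjusted p = 0.00520). KDM5C had 3895, 4027 and 4102 normalized reads against 4447 and 4282, and it missed the threshold when untreated library 1 (adjusted p = 0.0510) or DETA/NO library 1 and 2 (0.0998) was left out. KDM5A, of the same family, had a log2 fold change of 0.06 (95% interval -0.02 to 0.14). JMJD1C, a relative of the lysine 9 demethylases KDM3A and KDM3B, rose by 0.11, a call lost (adjusted p = 0.129) when DETA/NO library 3 was left out. KDM3A and KDM3B had log2 fold changes of 0.03 and -0.04 and did not pass.

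KDM7A, PHF2 and PHF8 share a finger that reads methylated lysine 4 next to the Jumonji domain and act on lysine 9 and, for KDM7A, also on the Polycomb mark. KDM7A, on chromosome 7 at 140084746 to 140177035, had 783, 777 and 799 normalized reads in untreated libraries and 582 and 642 in DETA/NO libraries. The untreated values lay within a narrow range and both DETA/NO values were below it, a log2 fold change of -0.36 ± 0.063 (adjusted p = 1.98e-05). PHF2, at 2236 ± 54.4 and 1986 ± 31.9, fell by 0.17 ± 0.041 on the log2 scale (adjusted p = 0.00108), whereas PHF8 had 0.06 (95% interval -0.02 to 0.15, adjusted p = 0.225). Whether the 3 genes differed from each other was not tested.

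The other histone demethylases did not pass. KDM2A, KDM2B, KDM4B and KDM4C had log2 fold changes from -0.09 to 0.06. Of the demethylases of the Polycomb mark, KDM6A had 2222 ± 87.0 and 2182 ± 80.8 normalized reads, and KDM6B had 1657 ± 116 and 1733 ± 68.0, with an adjusted p of 0.316 that became 0.0353 without untreated library 3. KDM8 was the least abundant, at 79.0 ± 10.7 and 74.6 ± 0.549, and its 95% interval of -0.41 to 0.27 allows changes as large as that of KDM7A. The intervals of the other genes that did not pass in this class stayed within 0.19 of 0.

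JARID2 keeps a Jumonji domain without catalytic activity and serves as a cofactor of Polycomb repressive complex 2. Its values were 3139, 3154 and 3029 normalized reads in untreated cells and 3730 and 3652 with DETA/NO, both above all 3. Its log2 fold change of 0.25 ± 0.036 (adjusted p = 1.24e-06) was the largest rise among the chromatin genes. JARID2 lies on chromosome 6 at 15246296 to 15522040. Of the catalytic side of that complex, EZH2 had a log2 fold change of -0.17 and EZH1 of -0.01 (adjusted p = 0.928). Of its other core subunits, SUZ12 had 0.11 (adjusted p = 0.00747) and EED 0.07 (adjusted p = 0.149).

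The TET enzymes start the removal of DNA methylation, and TET1 and TET2 fell while TET3 did not pass. TET1, on chromosome 10 at 68560656 to 68694482, gave 438, 393 and 394 normalized reads in untreated cells and 271.5 and 314 with DETA/NO. All untreated values were higher than both DETA/NO values, and the log2 fold change was -0.48 ± 0.088 (adjusted p = 3.93e-05). TET2, at 2338 ± 17.5 and 2129 ± 28.5, fell by 0.14 on the log2 scale (adjusted p = 0.00609), and the call was lost when DETA/NO library 1 and 2 was left out (0.0610). TET3 had 3831 ± 71.2 and 4001 ± 6.25, with DETA/NO libraries above all untreated ones but an adjusted p of 0.149. TET3 held the largest share of the family per kb of exon, 62.7% ± 0.742 in untreated and 67.0% ± 0.721 in DETA/NO libraries, and TET1 the smallest, 8.82% ± 0.519 and 6.48% ± 0.610. The sum of the family per kb went from 498 ± 5.75 to 487 ± 4.48, with TET3 above and the other two below their untreated shares.

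**Figure D3:**
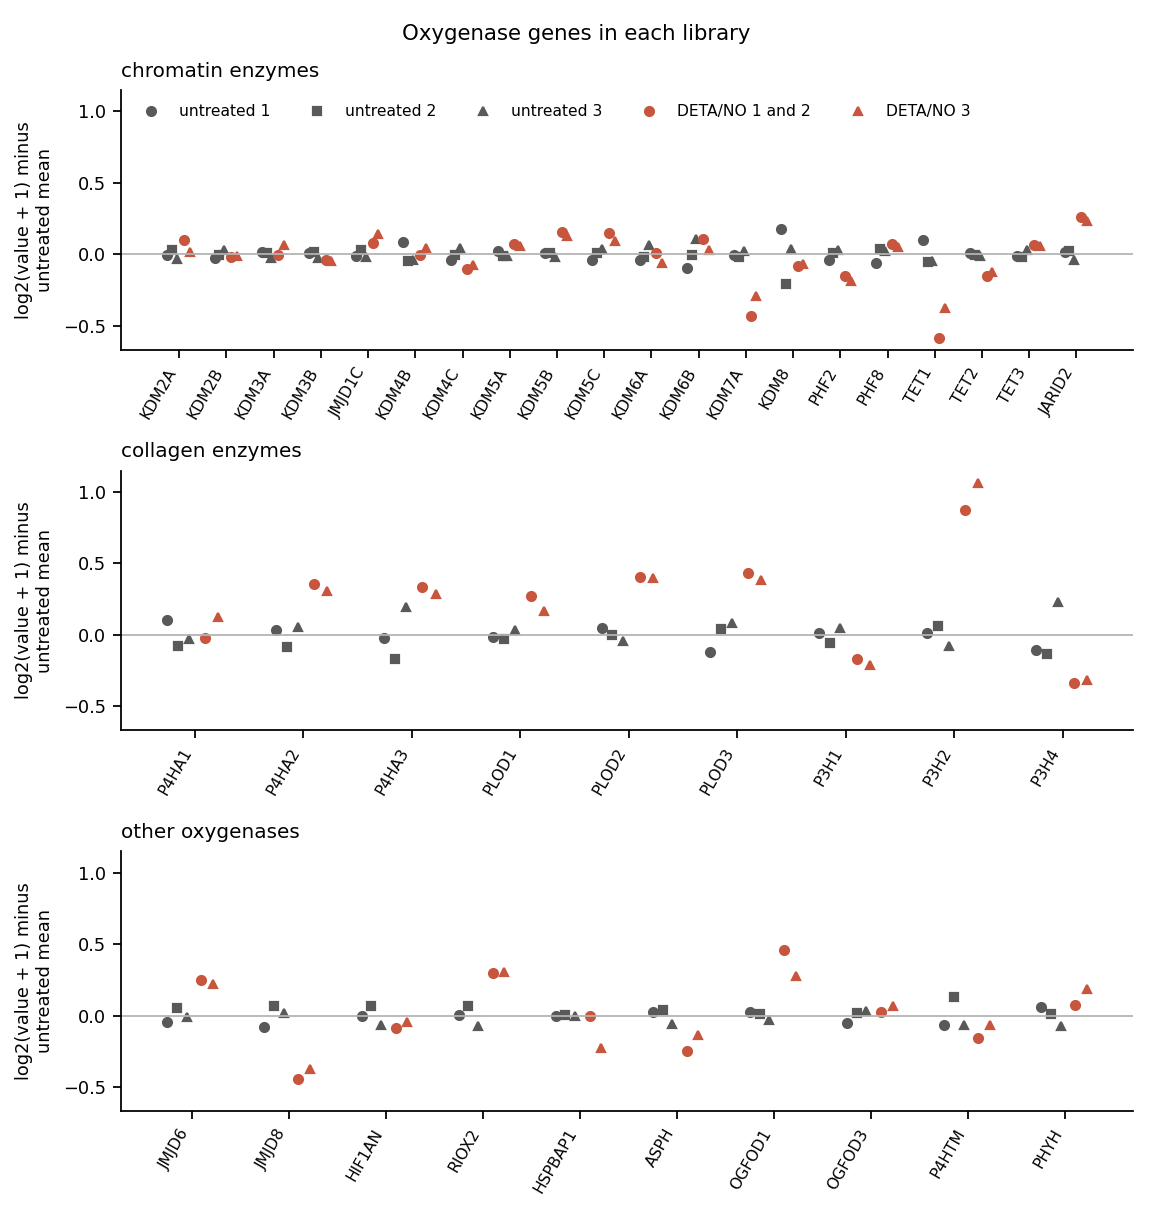
Log2(value + 1) of each tested gene in each library minus the mean of the 3 untreated libraries (vertical axis), with genes along the horizontal axis in 3 classes; grey marks are untreated and red marks DETA/NO libraries. Both DETA/NO libraries of TET1 and KDM7A lie below, and both of P3H2, PLOD2 and PLOD3 above, every untreated library.

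Genes that write the marks removed by these enzymes were read from further lists. Of 22 histone methyltransferase genes and cofactors, 4 rose and 3 fell, with a median log2 fold change of 0.012. The share called was 31.8%, against 43.4% of all tested genes. With limma without trend and robust options, 2 of the list rose. KMT2A and SETD1A, both of lysine 4, rose by 0.23 and 0.20, and KMT2C, of the same lysine, had a log2 fold change of -0.22; other genes overlap 67.7% of the KMT2A span. Of 5 genes of DNA methylation, DNMT3A, a de novo methyltransferase, fell by 0.26 on the log2 scale (adjusted p = 2.01e-06). UHRF1 and TDG rose by 0.14 and 0.13, but UHRF1 lost its call when untreated library 1 (adjusted p = 0.0695) or DETA/NO library 3 (0.148) was left out. TDG, the glycosylase that excises what TET enzymes produce, lost it on leaving out untreated library 3 (0.0664), DETA/NO library 1 and 2 (0.0660) or DETA/NO library 3 (0.0507), so that 0 genes of the list rose without DETA/NO library 3. Of the flavin-dependent demethylases, which use no iron, KDM1B fell by 0.15 on the log2 scale (adjusted p = 0.000632) and KDM1A did not pass (0.32, adjusted p = 0.219). Other genes overlap 98.9% of the KDM1A span, and its untreated value was 61.3 ± 15.7, so its level and change may not be readable here.

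The other Jumonji proteins act outside histone lysines. RIOX2, a nucleolar histidine hydroxylase of a ribosomal protein, had 1291, 1345 and 1223 normalized reads in untreated libraries and 1577 and 1591 in DETA/NO libraries, well above them (log2 fold change 0.30 ± 0.049, adjusted p = 7.41e-06). A neighbouring gene overlaps 27.6% of its exons on chromosome 3 (97941818 to 97972457). JMJD6, a nuclear lysyl hydroxylase of splicing factors, rose by 0.23 (adjusted p = 0.000437). JMJD8, a protein of the endoplasmic reticulum, had 100.4, 110.9 and 107.2 against 77.6 and 81.7, a log2 fold change of -0.41 ± 0.148. Its adjusted p of 0.0244 became 0.0770, 0.118 and 0.0549 on leaving out untreated library 2, DETA/NO library 1 and 2, and DETA/NO library 3, respectively, and another gene overlaps 37.4% of its exons. HIF1AN, the asparagine hydroxylase that restrains hypoxia-inducible factors, had 2020 ± 94.4 and 1928 ± 36.6 (log2 fold change -0.07, 95% interval -0.16 to 0.02). HSPBAP1 had 857 ± 2.98 in untreated libraries but 855 and 732 in the DETA/NO libraries, and of the alternatives run it passed in 1, with DETA/NO library 1 and 2 left out (adjusted p = 0.0138, against 0.143 with all libraries).

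Of the remaining oxygenases, OGFOD1 rose and ASPH fell. OGFOD1, which hydroxylates a proline of a small-subunit ribosomal protein, had 326, 323 and 314 normalized reads against 442 and 389, both above all untreated libraries (log2 fold change 0.37 ± 0.085, adjusted p = 0.000633). OGFOD1 lies on chromosome 16 at 56451490 to 56479100, where other genes overlap 48.9% of its span and 4% of its exons. Whether this overlap lowers the OGFOD1 values was not tested. ASPH, which hydroxylates aspartate and asparagine in EGF-like domains, had 7693, 7776 and 7272 against 6388 and 6888. Both DETA/NO values were lower than all untreated ones, and the log2 fold change was -0.19 ± 0.036 (adjusted p = 6.60e-05). PHYH, the peroxisomal enzyme that breaks down phytanic acid, had 0.13 (adjusted p = 0.198), and OGFOD3 and P4HTM had 0.05 and -0.11, all without passing the test.

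JMJD4, TYW5 and OGFOD2 were listed at 0 in every library and were not tested. JMJD4 hydroxylates a translation termination factor, and TYW5 hydroxylates a modified base of phenylalanine tRNA. Other annotated genes overlap 100% of the span of each of the 3 genes, though only 3.3% of the exons of TYW5. Across the files, 97.4% of 1774 protein-coding genes with a wholly overlapped span were listed at 0 in every library, against 8.9% of 17886 other protein-coding genes. Whether these 3 genes are transcribed cannot be read from the listed 0.

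Levels were compared between genes per kb of annotated exon, with the exons of all annotated transcripts of a gene joined. This length can exceed that of the transcript expressed, so the order depends on the annotation. Chromatin genes headed the order in untreated cells. In normalized reads per kb, KDM3B had 738 ± 10.8, JMJD1C 656 ± 10.8, JARID2 516 ± 11.4, KDM5C 459 ± 11.95 and PHF2 401 ± 9.77. ASPH followed at 378 ± 13.5. KDM2A, TET3 and KDM6A came next at 312.5, 312.2 and 311.3, which differ by less than their spread. The collagen enzymes lay lower, from PLOD1 at 256 ± 5.85 and P4HA1 at 234 ± 15.5 to P4HA3 at 20.2 ± 2.62, and KDM8 had the lowest level of the tested genes at 19.6 ± 2.64. P3H2 stood at 61.4 ± 3.04 in untreated cells, beside P4HA2 at 63.3 ± 3.28, and at 121 in DETA/NO libraries, beyond P4HA2 at 79.7.

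**Figure D4:**
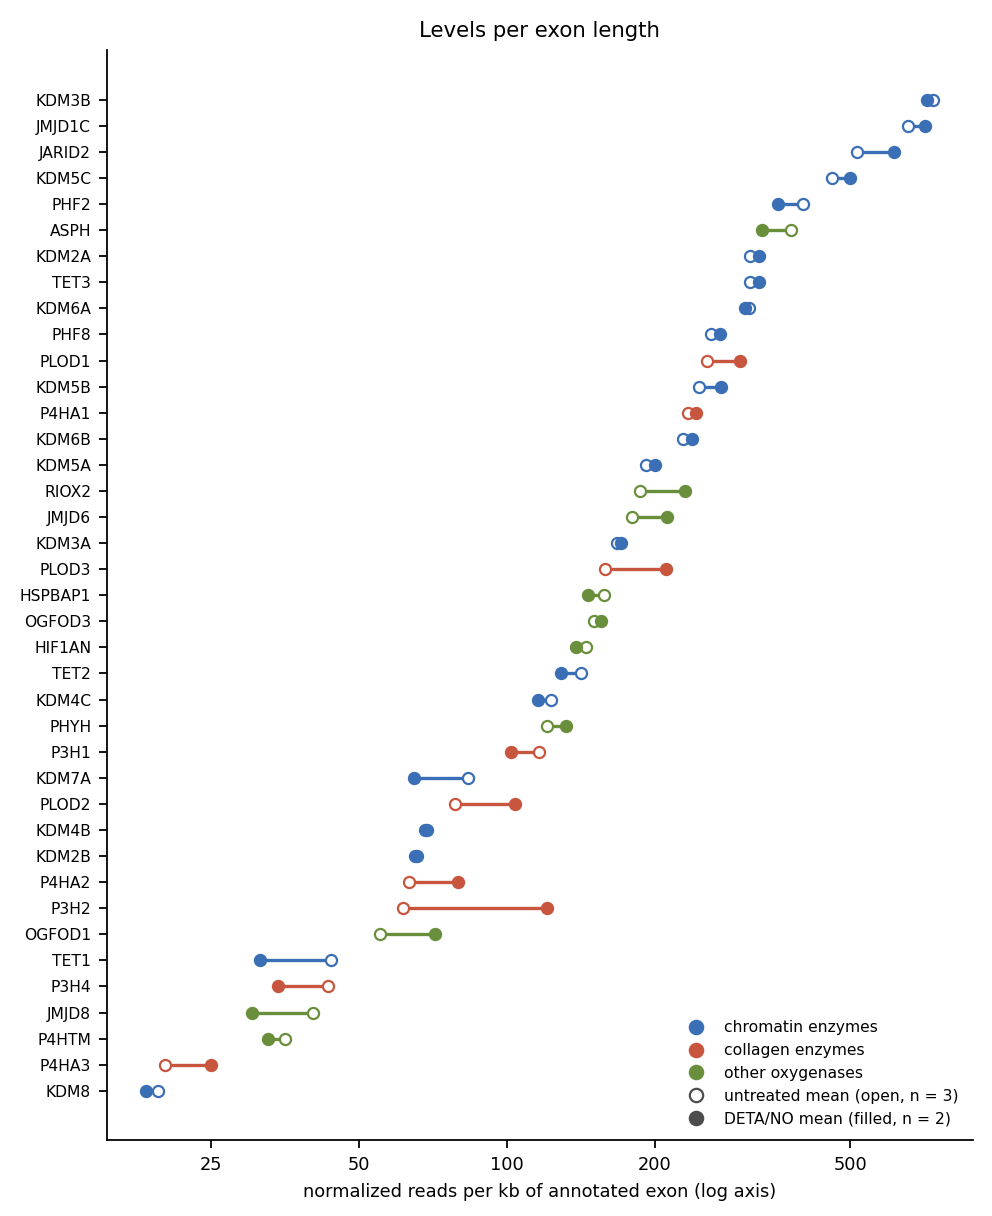
Mean normalized reads per kb of annotated exon (horizontal log axis) of each tested gene in untreated (open) and DETA/NO (filled) libraries, ordered by the untreated level. The shift of P3H2, from 61.4 to 121, is the longest on the plot. KDM3B, the most abundant gene, goes from 738 to 716, and JARID2, among the next in order, from 516.5 to 613.6.

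Of the 7 genes of the list that are textbook hypoxia targets, PLOD1, PLOD2 and P4HA2 rose, 0 fell, and KDM3A, KDM4B, KDM4C and P4HA1 did not pass, with a median log2 fold change of 0.054. The share called, 42.9%, was close to the 43.4% of all tested genes called in either direction. All of these calls were rises, and 21.7% of all tested genes rose. The difference was not tested. The chromatin members of that set had log2 fold changes from -0.09 to 0.03.

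Genes that supply the cosubstrate, or handle the products and cofactors of these reactions, were read from a list of 18, of which 15 were tested, 5 rose and 4 fell (median log2 fold change -0.024). IDH1, the cytosolic enzyme that makes 2-oxoglutarate from isocitrate, had 8753 ± 244 and 5960 ± 79.1 normalized reads and fell by 0.55 ± 0.032 on the log2 scale (adjusted p = 2.29e-15). IDH2, its mitochondrial counterpart, had a log2 fold change of -0.22. IDH3A, a subunit of the isocitrate dehydrogenase of the citric acid cycle, rose by 0.27, and FH, which removes fumarate, an inhibitor of these oxygenases, by 0.16. Other genes overlap 38.9% of the IDH3A exons. Levels of 2-oxoglutarate, succinate and fumarate were not measured.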

How the data were processed

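RNA-seq was done on MDA-MB-468 cells. The 6 deposited files hold 1 normalized read count per gene (a signal), which the authors made; tools in the submitters' processing notes include TopHat2 2.1.1, Bowtie2 2.5.0.0, featureCounts 2.0.3 and DESeq2 1.38.3, with GRCh38. The annotation and the strand and counting settings are not given in the sources used here. Dividing each library's values by the value of 1 read gave whole reads for 100% of values (tolerance 0.01); on these edgeR called 3578 genes higher and 3423 lower. The labels print the dose unit as M, read here as µM. In every file 27 row names had become dates; these rows stayed in the tests.

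Groups came from sample titles, and identical files were averaged. The main test was limma 3.58.1 (R 4.3.3; trend, robust) on log2(value + 1), for the 16409 genes whose mean over libraries reached 10; fold changes are on that scale. edgeR 4.0.16 and DESeq2 1.42.0 on those reads were alternatives, as were limma without trend and robust options, TMM and quantile scaling, pseudocounts of 0.5 and 5, no filter or a mean of 50, the replicate number as a block, and each library left out in turn. The main test was checked on simulated counts with the same fixed spread for all genes and 50 changed genes per fold. It recovered 74% of 1.5-fold and 94% of 2-fold changes, with 6 false calls among 190. Changes under 1.5-fold, as in every oxygenase gene past the test but P3H2, were not simulated. Positions, exon lengths and overlaps are from GENCODE release 29 (GRCh38), upstream sequences from RefSeq (GRCh38.p14). The genes, lists and tests were chosen with earlier results of these data known. Every gene of the 43 is accounted for; values in every library are given for those past the test with an absolute log2 fold change of at least 0.3 and for the smallest adjusted p of each role. From each further list the text names at most 2 genes that rose and 2 that fell, those of smallest adjusted p. Other genes were singled out beside them after their values were seen. These were CRTAP, KDM1A, EZH1, SUZ12, EED, the other endothelial markers, the markers at or near 0 and the untested genes of the cosubstrate list. Alternatives for genes and lists outside the 43 were added after seeing the data.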

Additional observations from a re-analysis of the deposited data

How the results depend on the processing

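Of the 20 oxygenase genes past the test, 13 kept the call and direction in all 15 alternatives, and the other 7 kept their direction. Limma without trend and robust options called 2262 of all genes higher, 10 oxygenase genes higher and 5 lower, 2 chromatin genes higher, and 1 collagen gene and 1 other oxygenase lower. With DESeq2, 5 oxygenase genes fell, of them 0 collagen genes and 1 other oxygenase, and with quantile normalization 1 collagen gene fell. Leaving out 1 library in turn gave 5 to 8 oxygenase genes lower, 0 to 2 collagen genes lower and 1 to 2 other oxygenases lower. Genes that did not pass and changed sign over the 5 fits with a library left out were KDM3A (log2 fold change -0.004 to 0.062), KDM4B (-0.008 to 0.062), KDM6A (-0.064 to 0.012), KDM8 (-0.178 to 0.016) and P4HA1 (-0.019 to 0.128). Without untreated library 1, KDM3A had 0.038, KDM6A -0.047 and P4HA1 0.107. EGFR was at 0 under quantile normalization. With a replicate block, numbers 1 and 2 as one block, 12 oxygenase genes rose and 8 fell, and 3788 and 3759 of all genes; the check of pairing gave a correlation of 0.03 across genes, and the labels do not say that a number marks a shared day. Among the genes outside the 43, limma without both options called 0 of the cosubstrate list higher, in place of 5. The cause of these changes was not tested. Depth limits the genes under 150 normalized reads most: KDM8, JMJD8 and P4HA3 have the widest intervals.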
